A study of Mus musculus with 49 samples.

Results

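Mitochondrial oxidative phosphorylation genes were described in 49 single cells of the mouse metanephric mesenchyme, the tissue around the ureteric bud that gives rise to nephrons and kidney stroma. The genes were taken by symbol, as every gene whose name begins with Nduf, Uqcr, Atp5 or Cox followed by a digit from 4 to 8, or is Sdha, Sdhb, Sdhc or Sdhd. This gave 87 of the 13093 genes in the table. Of these, 79 encode structural subunits: 36 of complex I, 4 of complex II, 8 of complex III, 16 of complex IV and 15 of complex V. The other 8 match by name only. Ndufaf1, Ndufaf2, Ndufaf3, Ndufaf4 and Atp5sl (now Dmac2) encode complex I assembly factors, Cox7a2l a factor that joins complexes into supercomplexes, Atp5s coupling factor B, and Cox4nb (now Emc8) a subunit of a membrane complex of the endoplasmic reticulum.

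The embryos carried the Tg(Crym-EGFP)82Gsat transgene on a mixed background, were of both sexes and were 11.5 days post coitum (Theiler stage 19). The tissue was cut out under the reporter's fluorescence, with a few cells from outside its domain, and the captured cells were sequenced one by one without pooling. All 49 cells carry the transgene, and no untreated or wild-type group was analysed here. No label ties a cell to an embryo or litter. The cells therefore count as 1 sample, and every comparison below is a description without a test.

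Oxidative phosphorylation takes place in the inner mitochondrial membrane. Complexes I and II pass electrons from NADH and succinate to ubiquinone, complex III passes them on to cytochrome c, and complex IV passes them to oxygen. Complexes I, III and IV pump protons as they work, and complex V, the ATP synthase, uses the return of those protons to make ATP. The nuclear genes described here encode most of the subunits, and the mitochondrial genome encodes the rest. Nephron progenitors are known for a high rate of glycolysis, which makes the balance between the 2 routes to ATP of interest in this tissue.

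A gene was called detected in a cell at 1 RPKM (reads scaled to gene length and library size) or more. The median cell had 5210 detected genes, with a range of 3610 to 6510. The number of reads relative to the median cell, read from the steps between low values, was 0.693 to 1.52 in 47 cells, 0.0346 in cell 3 and 0.0462 in cell 7. Cell 25 held ureteric bud genes at a summed 685 RPKM and cell 27 endothelial genes at a summed 747 RPKM. At least 1 of 5 ureteric bud markers was detected in 8 cells and at least 1 of 4 endothelial markers in 6. In cells with Six2 the highest ureteric bud sum was 163 RPKM. At least 3 of 8 nephron progenitor markers were detected in 45 cells and at least 3 of 6 stromal markers in 31 cells. Of the 8, Crym, Wt1 and Sall1 were detected in 48, 47 and 44 cells, so this count does not set nephron progenitors apart. At least 1 of 3 blood and macrophage markers was detected in 9 cells: Alas2 in 7, Fcer1g in 2 and Laptm5 in 1. No cell had all 3, and their highest sum, 87.4 RPKM, was in a cell with neither Six2 nor Foxd1. Of 2 muscle markers in the table, Des was detected in 31 cells, at up to 206 RPKM, and Actc1 in 2. All libraries ran in 1 lane, so there is no sequencing batch to compare.

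Subunit genes were among the more abundant transcripts of these cells. The median over the 79 genes of each gene's median level was 144.8 RPKM, against 0.0839 RPKM over all genes and 11.8 RPKM over the 4555 genes detected in at least 25 cells. Of the 79, 56 lay in the top 5% of all genes by median level (at 95.5 RPKM or more) and 71 in the top 10%. Detection was near complete, with 31 genes found in all 49 cells, 71 in at least 45 and 74 in at least 25. The 5 genes below that were alternative tissue forms of complex IV subunits. RPKM is scaled to gene length, so these levels can be set side by side. They reflect amplified cDNA, and how evenly the genes were amplified is not known. Genes with processed copies elsewhere in the genome are also uncertain, because no source used here says how reads with several matches were handled.

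The complexes differed in level. The median gene of complex I stood at 105.5 RPKM, of complex II at 120.6, of complex III at 220.4, of complex IV without the alternative forms at 253.1 and of complex V at 293.1 RPKM. Within each complex the genes spanned a wide range, so the complexes overlap.

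In complex I the lowest median was that of Ndufs1, the large iron-sulphur subunit of the catalytic core, at 7.23 RPKM. It was detected in 37 cells and ranged from 0 to 139 RPKM. Next came Ndufv3, an accessory subunit of the NADH-binding arm, at 31.5 RPKM. The highest medians were those of the accessory subunits Ndufb9 at 250.3 RPKM and Ndufa7 at 235.4 RPKM. Core and accessory genes did not separate by level: the 7 core genes had a median of 104.8 RPKM and the 29 accessory genes 107.8 RPKM.

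Complex II is also the citric acid cycle enzyme succinate dehydrogenase. Its lowest median was that of Sdhc, a membrane anchor, at 84.3 RPKM, followed by Sdha, the flavoprotein, at 93.4 RPKM. The other anchor, Sdhd, stood at 147.9 RPKM and the iron-sulphur subunit Sdhb at 243.6 RPKM. None of the 4 was detected in all 49 cells.

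In complex III, Uqcrfs1, the Rieske iron-sulphur protein, was lowest at a median of 41.2 RPKM, below the core protein Uqcrc2 at 164.7 RPKM. The small subunits Uqcrh, at 355.3 RPKM, and Uqcrb, at 320.5 RPKM, were highest. Cyc1, the cytochrome c1 gene, belongs to complex III by function but not by name, and had a median of 69.2 RPKM, being detected in 44 cells.

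Among the main subunits of complex IV, Cox7b was lowest at 137.7 RPKM and Cox5a, which faces the matrix, next at 153.6 RPKM. Cox6a1, at 629.2 RPKM, and Cox4i1, the largest nuclear-encoded subunit, at 577.2 RPKM, were highest. The gap between Cox4nb and Cox4i1 on chromosome 8 (mm9) is 178 bases, measured in genome coordinates without regard to strand. The libraries kept no strand, so reads between these neighbours could not be assigned with certainty. Cox4nb had a median of 9.94 RPKM.

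In complex V, Atp5j2, a subunit of the membrane part, had a median of 39.4 RPKM and Atp5e, the F1 epsilon subunit, 134.3 RPKM. The highest medians were those of Atp5b, the catalytic beta subunit, at 606.4 RPKM and of Atp5o, which joins the head to the stalk, at 579.9 RPKM. The plot of levels by complex shows the long lower tail of complex I and the narrow spread of most complex V genes.

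**Figure D1:**
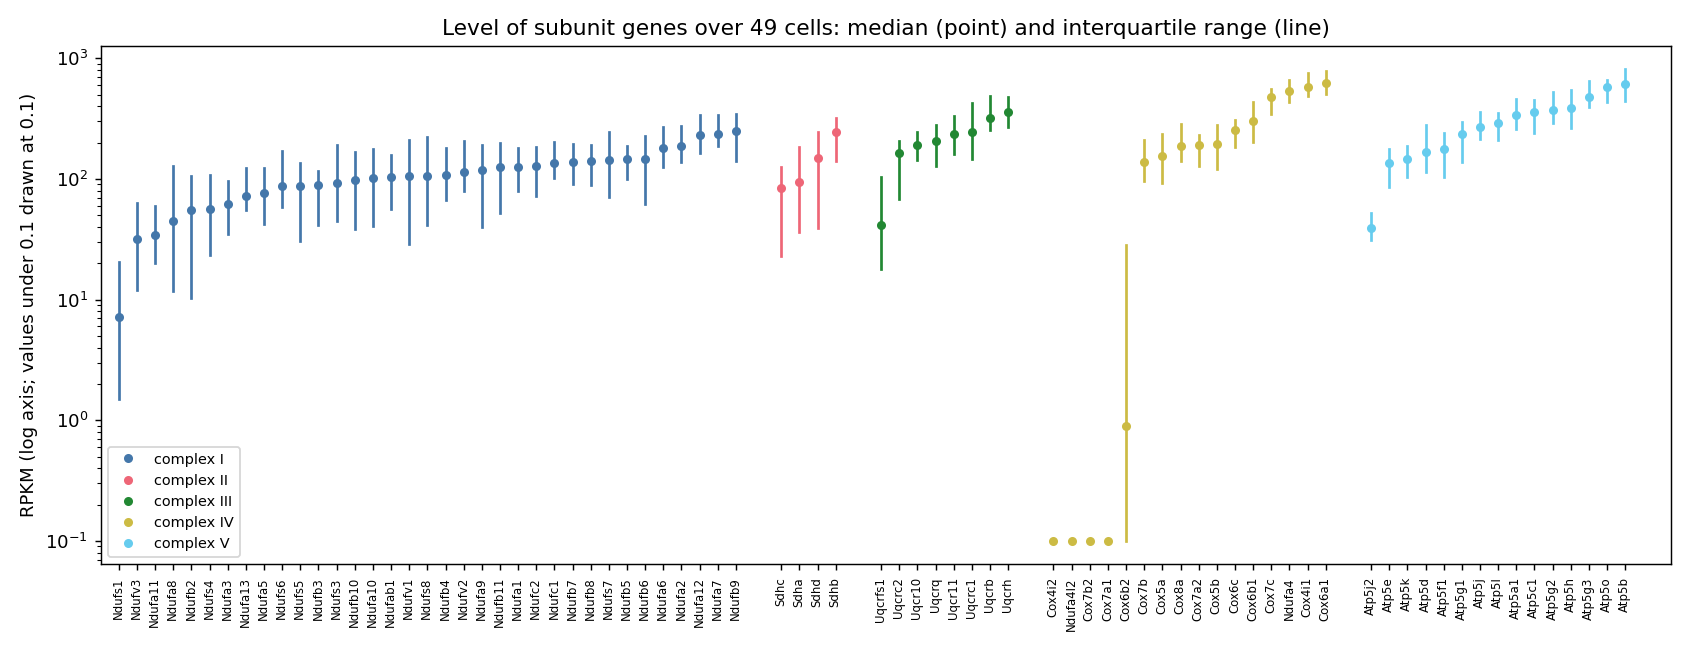
Median RPKM (point) and interquartile range (line) of subunit genes over 49 cells, on a log axis and grouped by complex. Most complex III, IV and V genes lie above 100 RPKM, 4 alternative forms of complex IV lie at a median of 0, and Ndufs1 is the lowest of complex I at 7.23 RPKM.

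The 8 genes matched by name only were lower. Cox7a2l was detected in 49 cells at a median of 131.0 RPKM. The assembly factors Ndufaf2, Ndufaf4 and Ndufaf1 were found in 38, 29 and 28 cells at medians of 27.2, 4.70 and 3.70 RPKM. Atp5sl was found in 21 cells, Ndufaf3 in 18 and Atp5s in 6. Most of these genes were thus found in fewer cells and at lower levels than the main subunits.

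The 87 genes lie on 18 autosomes and the X chromosome, with at most 8 on 1 chromosome. RefSeq promoters (GRCm38.p6, 250 bases before to 50 bases after the gene's start) were matched by gene ID for 73 of the 87 genes, 66 of them subunit genes. They were searched on both strands for 3 motifs of factors known to drive nuclear genes for mitochondrial proteins. These were GCGCATGC for NRF1, CCGGAAG for the ETS family to which GABP belongs, and AAGATGG for YY1. The NRF1 letters were in 10 of 66 subunit genes (15.2%), against 6.11% of 10190 genes of the table with a promoter and 3.05% of all 27025 genes with one. The ETS letters were in 16 (24.2%), against 20.1% and 9.93%, and the YY1 letters in 11 (16.7%), against 8.48% and 7.28%. At least 1 of the 3 was in 31 of 66 subunit genes (47.0%), against 30.9% of the table's genes. The end of the NRF1 letters is the start of their reverse complement, GCATGCGC, and in 5 of the 10 genes matches on both strands overlapped. In 8 of the 11 genes with the YY1 letters the match began 22 to 38 bases after the start on the gene's own strand, and these letters contain ATG. A match describes the letters only and does not show that a factor binds there.

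The promoters below are shown because they belong to the gene with the highest median level among subunit genes with the NRF1 or the ETS letters (Cox6a1, chr5:115348909-115349208), to that with the highest among those with the YY1 letters (Cox7c, chr13:86046746-86047045), and to a pair of forms of 1 subunit that differed in how many cells held them (Cox6b1, chr7:30626065-30626364, and Cox6b2, chr7:4753045-4753344). All 4 are from GRCm38.p6, on the minus strand, and read 5′ to 3′ along the gene. Capitals mark the motifs. Those in Cox6a1 and Cox7c were fixed by the choice of these genes.
Cox6a1: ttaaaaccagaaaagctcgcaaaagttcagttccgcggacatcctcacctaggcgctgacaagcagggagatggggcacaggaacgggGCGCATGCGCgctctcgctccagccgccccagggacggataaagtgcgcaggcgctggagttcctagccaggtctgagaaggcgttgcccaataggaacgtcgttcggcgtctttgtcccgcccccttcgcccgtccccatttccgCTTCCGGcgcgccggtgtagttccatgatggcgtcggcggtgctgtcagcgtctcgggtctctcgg
Cox7c: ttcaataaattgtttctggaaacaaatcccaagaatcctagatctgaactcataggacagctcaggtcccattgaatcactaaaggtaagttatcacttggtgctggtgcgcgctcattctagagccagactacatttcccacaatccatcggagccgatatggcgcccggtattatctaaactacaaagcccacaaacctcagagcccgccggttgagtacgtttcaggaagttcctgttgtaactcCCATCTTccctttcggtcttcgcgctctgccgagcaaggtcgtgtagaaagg
Cox6b1: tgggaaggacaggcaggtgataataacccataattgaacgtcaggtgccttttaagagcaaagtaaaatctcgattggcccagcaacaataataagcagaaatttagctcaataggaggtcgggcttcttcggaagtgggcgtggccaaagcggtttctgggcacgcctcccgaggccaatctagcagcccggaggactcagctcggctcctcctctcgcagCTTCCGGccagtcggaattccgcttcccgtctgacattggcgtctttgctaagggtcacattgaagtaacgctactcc
Cox6b2: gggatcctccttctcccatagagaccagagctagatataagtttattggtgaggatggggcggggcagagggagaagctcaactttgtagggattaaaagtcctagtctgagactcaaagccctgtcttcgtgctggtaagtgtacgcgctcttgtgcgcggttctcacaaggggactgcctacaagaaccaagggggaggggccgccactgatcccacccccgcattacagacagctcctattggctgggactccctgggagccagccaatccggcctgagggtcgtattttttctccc
Cox6a1 holds overlapping NRF1 matches and 1 ETS match, Cox7c 1 YY1 match and Cox6b1 1 ETS match. Cox6b2 holds none of the 3.

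The share of a cell's summed RPKM taken by the 79 subunit genes was narrow across cells. The lowest value was 0.584% in cell 3, the median 3.63% and the highest 5.97% in cell 50. Cell 7 was second lowest at 1.81% and cell 45 second highest at 5.21%. Without the shallow cells 3 and 7 the range was 2.98 to 5.97%, and 43 of 47 cells lay between 3 and 5%. In the median cell, complex I made up 29.6% of this share, complex V 30.3%, complex IV 24.3%, complex III 12.2% and complex II 3.72%.

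Cell 7 departed from this make-up. Ndufa7 stood at 5023 RPKM there, against at most 550.1 RPKM in cells other than 3 and 7, and complex I took 76.0% of the cell's subunit share. Cox7a2l reached 24438 RPKM in the same cell, against at most 589.6 RPKM in cells other than 3 and 7. Single genes with extreme values in a library with few reads are carried along in every mean that holds this cell.

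Among the 74 subunit genes detected in at least 25 cells, 74 of 3626 values were 0 (2.04%). Cell 3 had 18 of these zeros and cell 7 had 23, which leaves 33 in the other 47 cells, with at most 6 in 1 cell (cell 44). No zero occurred in 28 cells. At the other end, cell 50 held the highest value of 20 of the 74 genes and cell 45 that of 7. Cell 50 was positive for Six2, Foxd1 and mitotic genes, and its relative read number of 1.00 was that of the median cell.

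**Figure D2:**
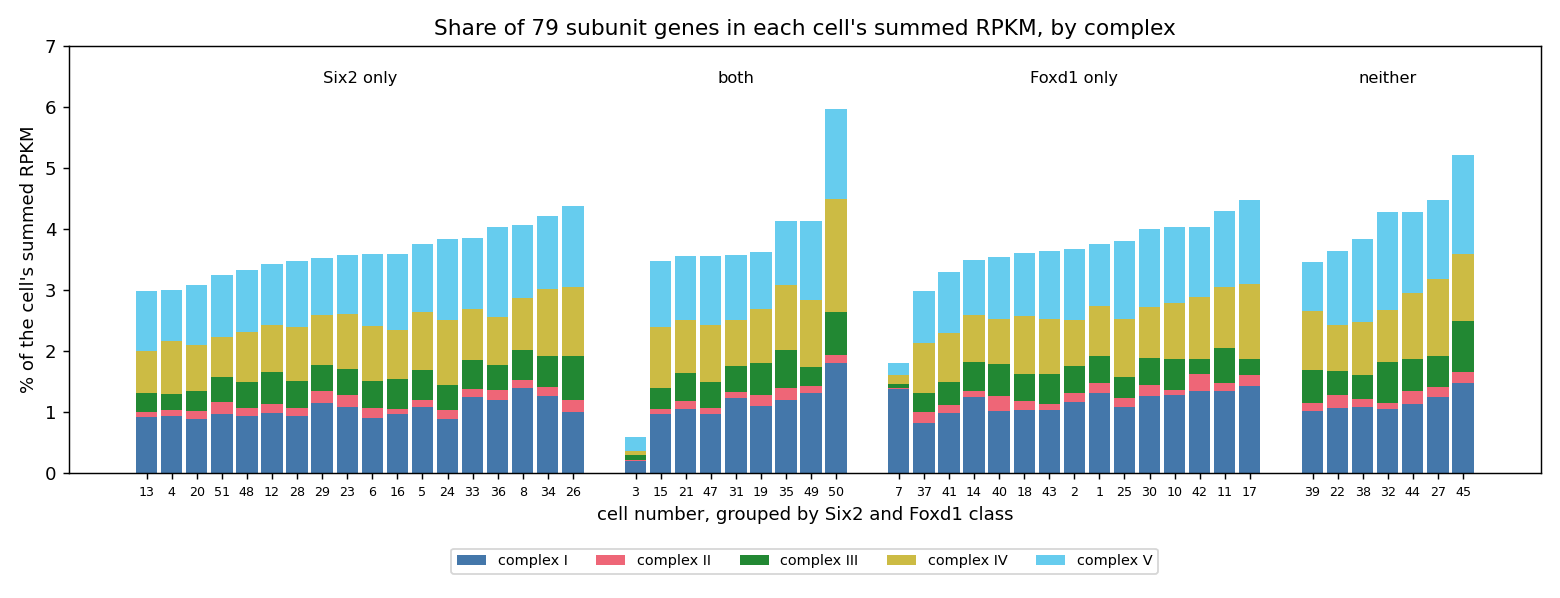
Share of the 79 subunit genes in each cell's summed RPKM, stacked by complex, with cells grouped by detection of Six2 and Foxd1 and ordered by share within a group. The shallow cells 3 and 7 stand low at 0.584% and 1.81%, cell 50 stands highest at 5.97%, and the other cells differ little.

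Some subunit genes varied far less between cells than others. The spread was taken as the standard deviation (SD) of log2(RPKM + 1) over the 49 cells, for the 71 genes undetected in at most 5 cells. Cox7c, a small complex IV subunit, varied least, with an SD of 0.62 and values from 69.9 to 873 RPKM around a median of 478.6. Next were 4 complex V genes: the c-subunit gene Atp5g2 (SD 0.70), Atp5j2 (0.71), Atp5b (0.76) and the stalk subunit Atp5j (0.79). All 5 were detected in every cell.

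Among the genes that varied most were 4 of complex I. These were the NADH-binding core subunit Ndufv1 (SD 2.39), with values from 0 to 551 RPKM around a median of 104.8, and the accessory subunits Ndufa10 (2.33), Ndufb2 (2.30) and Ndufa9 (2.27). The identifier of Ndufb2 in the table carries a locus suffix, so its placement is less certain than that of the others. For genes in at least 45 cells, the median SD was 1.48 over 71 subunit genes and 1.51 over all 1296 genes. Without cells 3 and 7 these were 1.11 and 1.45. The 2 sets also differed in level, with medians of 147.9 and 90.9 RPKM over all cells. The part of level in the spread was not tested.

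Subunit genes were only weakly correlated from cell to cell. The median Spearman correlation over the 2701 pairs of the 74 genes was 0.11 across 49 cells, against 0.03 over all pairs of genes in at least 25 cells. It was 0.18 within complex IV, 0.14 within V, 0.14 within III, 0.09 within I and -0.11 over the 6 pairs of complex II. Without cells 3 and 7 the median over subunit pairs was 0.04. For genes in at least 45 cells and without cells 3 and 7, it was 0.05 over subunit pairs and 0.01 over all pairs. Within complex V it was then 0.06. Values of 1 cell share its library and depth, so such weak correlations are given as description only.

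Several subunits are encoded by more than 1 gene. The c subunit, which forms the rotating ring of complex V, is made from Atp5g1, Atp5g2 and Atp5g3, which encode the same mature protein behind different targeting sequences. All 3 were detected in all 49 cells. Atp5g1 ranged from 9.14 to 646 RPKM (median 233.4), Atp5g2 from 48.5 to 839 (median 371.8) and Atp5g3 from 17.3 to 1125 (median 477.0). Atp5g3 was the highest of the 3 in 32 cells, Atp5g2 in 15 and Atp5g1 in 2, and Atp5g1 was the lowest in 38. The 3 ranges overlap widely, and no cell relied on a single gene.

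Complex IV has paired forms that differ between tissues. Cox6b1, the form found in most tissues, was detected in 47 cells and was 0 in cells 3 and 7. Cox6b2, best known from testis, was detected in 24 of 49 cells (49.0%, exact Clopper-Pearson 95% interval 34.4 to 63.7%, which covers counting error only). Where found, Cox6b2 had a median of 30.0 RPKM and reached 87.1 RPKM in cell 45. It was below Cox6b1 in each of these 24 cells, with a median ratio of Cox6b1 to Cox6b2 of 10.9. The median of Cox6b1 was 305.6 RPKM in cells with Cox6b2 and 290.4 RPKM in the others. Cox6b2 was found in 11 of 27 cells with Six2 and 13 of 22 without, in 12 of 24 with Foxd1 and 12 of 25 without, and in 11 of 21 cells with high mitotic genes and 13 of 28 with low.

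The other alternative forms were rare. Cox4i2, the form induced by low oxygen in lung and other tissues, was detected in 4 cells, at 28.3 RPKM in cell 50, 24.0 in cell 41, 2.13 in cell 17 and 1.83 in cell 39. Cox7a1, the heart and muscle form, was found in 3 cells, at 48.2 RPKM in cell 24 and under 2 RPKM in cells 14 and 34. Cox7b2 was found in 4 cells, with its 2 highest values, 43.3 and 28.9 RPKM, in the shallow cells 7 and 3. Ndufa4l2, a relative of the complex IV subunit gene Ndufa4 that responds to low oxygen, was found in cells 22 and 6 at 21.1 and 10.5 RPKM. The matching common forms Cox4i1, Cox7a2, Cox7b and Ndufa4 were each detected in 48 or 49 cells. Cox6a2, Cox8b and Cox8c were not analysed here.

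**Figure D3:**
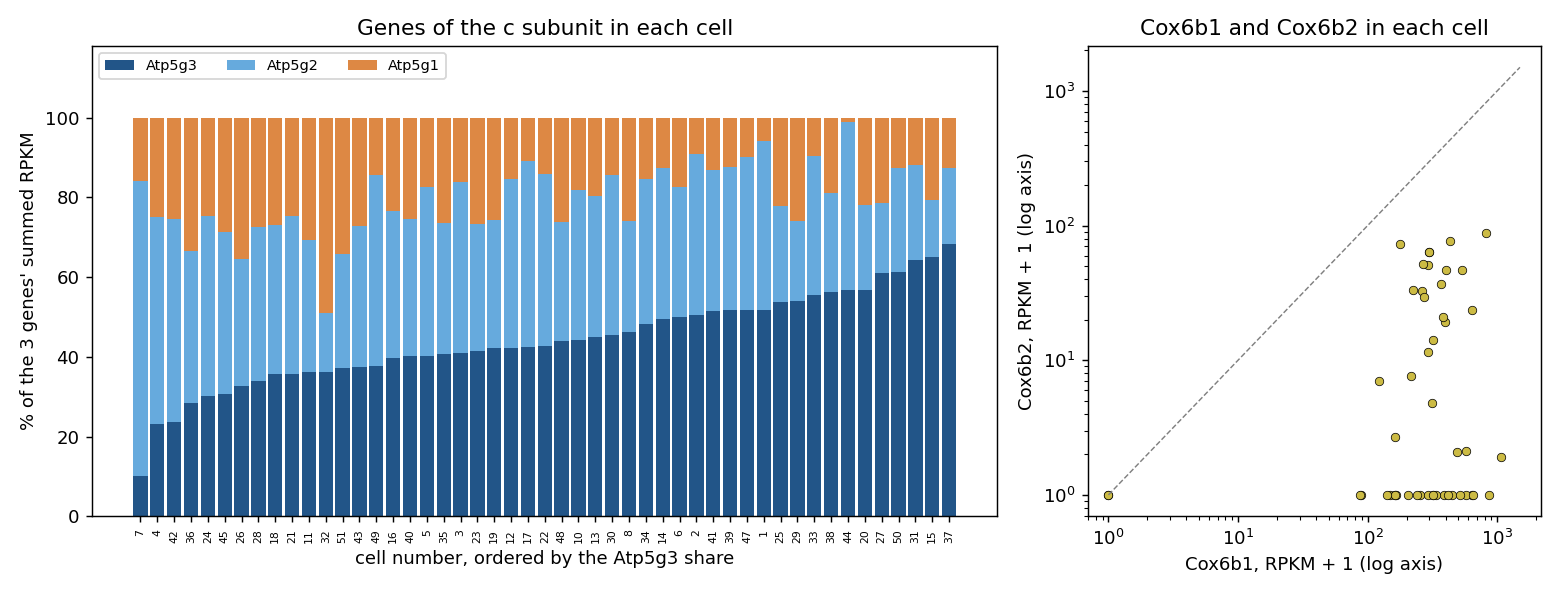
Left, share of Atp5g1, Atp5g2 and Atp5g3 in their summed RPKM in each of 49 cells, ordered by the Atp5g3 share. Right, Cox6b2 against Cox6b1 (RPKM + 1, log axes; dashed line, equal levels): all cells with Cox6b2 lie under the line, and cells 3 and 7 lie at the lower left corner with neither gene.

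Cells were next split by Six2, the transcription factor that keeps nephron progenitors undifferentiated. Six2 was detected in 27 cells and not in 22. Differences between groups of cells are differences of mean log2(RPKM + 1), a scale that understates differences of low genes, and genes apart by 1 or more (2-fold) are counted. The 4 classes formed with Foxd1 were Six2 only (18 cells), Foxd1 only (15), both (9) and neither (7).

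The subunit genes were nearly level across Six2 status. Their mean difference was 0.09 (-0.0277 with median-of-ratios scaling) and the median 0.04, with 43 genes higher and 36 lower in cells with Six2. All genes in at least 25 cells had a median of 0.20, and 61.9% of them were higher in cells with Six2. The share of summed RPKM was 0.584 to 5.97% with a median of 3.58% in cells with Six2, and 1.81 to 5.21% with a median of 3.78% in those without, so the groups overlap over nearly their whole range. In 7 cells with neither Six2 nor Foxd1 the share was 3.47 to 5.21% with a median of 4.27%, against medians of 3.57 to 3.67% in the other 3 classes. These 7 cells also had the fewest detected genes, with a median of 4246, and the part of that in the share was not tested.

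Only Ndufs7 and Uqcrfs1 of the 74 widely detected subunit genes were higher by 1 or more with Six2, where 13.7% of all 4555 genes in at least 25 cells were. None was lower by 1 or more, where 5.36% of those genes were. For genes in at least 45 cells the counts were 2 of 71 subunit genes (2.82%) against 9.65% of all 1296. All of these are counts without a test, and they were also small under the other settings, at 0 to 6 of 79.

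Ndufs7, the core subunit that carries the last iron-sulphur cluster before the quinone site, ranged from 0 to 618 RPKM with a median of 206 in cells with Six2, and from 0 to 576 RPKM with a median of 115 in those without. The difference was 1.23. It was 0.92 without cells 25 and 27. Uqcrfs1 had medians of 55.9 and 26.9 RPKM, ranges of 0 to 219 and 0 to 182 RPKM, and a difference of 1.05, which was 0.91 without cells 3 and 7 and 0.93 without cells 25 and 27. Values overlap over almost the full range for both genes.

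The next largest differences were those of the accessory complex I subunits Ndufs5 (0.84), Ndufa9 (0.83) and Ndufb2 (0.77). At the other end were Ndufs4 (-0.75), Ndufa7 (-0.59), Ndufc1 (-0.58) and Ndufa5 (-0.51), also accessory subunits of complex I, and Uqcrc2 (-0.56). That of Ndufa7 was -0.10 without cells 3 and 7. Complex I thus held both ends, while complex V genes stayed between -0.31 and 0.41 and complex II genes between -0.15 and 0.03.

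Of the other genes of the pathway, assembly factors were higher by 1 or more with Six2 more often than all genes were. Of 23 listed assembly factors 21 were in the table. With Six2, 17 of them were higher, 7 were higher by 1 or more (33.3%) and none was lower by 1 or more. Of all 13093 genes, 55.0% were higher, 957 were higher by 1 or more and 10.9% were apart by 1 or more in either direction. The most widely found of the 21 was Cox17, a copper chaperone for complex IV, detected in 47 cells. Its medians were 50.6 RPKM with Six2 and 31.0 RPKM without, and its difference was 1.07. Cox19, also known from complex IV assembly and found in 38 cells, had a difference of 0.12, and Cox10, which makes the haem of complex IV and was found in 31 cells, one of 1.02. Most of the list was found in under 25 cells, and the counts without cells 3 and 7 were 6 higher and 1 lower by 1 or more.

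Of 12 electron carriers and carriers of the inner and outer membrane, 8 were higher (66.7%) and 1, the outer membrane channel gene Vdac1, was higher by 1.18. That is 8.33% of the list, close to the share of all genes. The ADP/ATP exchangers Slc25a4 and Slc25a5, at medians of 693 and 691 RPKM over all cells, had differences of 0.47 and 0.35, and cytochrome c (Cycs) one of 0.79. Of 11 regulators 9 were higher, and 1 (9.09%) was higher by 1 or more, again close to the share of all genes. This was Tfam, which packages mitochondrial DNA and helps to transcribe it, found in 37 cells, with a difference of 1.22. Yy1 was found in 32 cells (0.48), Nrf1, Gabpa and Gabpb1 in 24 each, and Ppargc1a in 11. The factors whose motifs were searched for above were thus detected in 24 to 32 cells, where 71 of all 79 subunit genes were detected in at least 45. The 5 alternative forms of complex IV were detected in at most 24 cells.

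Glycolysis genes were set beside the subunit genes because both supply ATP. Of 16 in the table, 13 were higher with Six2 and 3 were higher by 1 or more: Hk2, a hexokinase, by 2.85, the glucose transporter gene Slc2a1 by 1.71 and the lactate dehydrogenase gene Ldhb by 1.17. Of all genes in at least 25 cells, 61.9% were higher, 13.7% were higher by 1 or more and 19.0% were apart by 1 or more in either direction. The 3 glycolysis genes are 18.8% of a list in which 13 of 16 were found in at least 25 cells, and no test was run. Without cells 3 and 7, 2 glycolysis genes were higher by 1 or more. The genes found in all cells were closer, such as Gapdh (0.52), Pkm2 (0.50) and Aldoa (0.06). The ratio of summed subunit RPKM to summed glycolysis RPKM ran from 1.47 to 7.09 with a median of 2.92 in cells with Six2, and from 2.02 to 5.57 with a median of 4.00 in those without. The ranges overlap. The difference of these medians was -1.08, and -1.07 without cells 3 and 7, but it was -0.47 with Six2 counted from 0.1 or from 5 RPKM and -0.17 with Six2 counted from 10 RPKM.

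**Figure D4:**
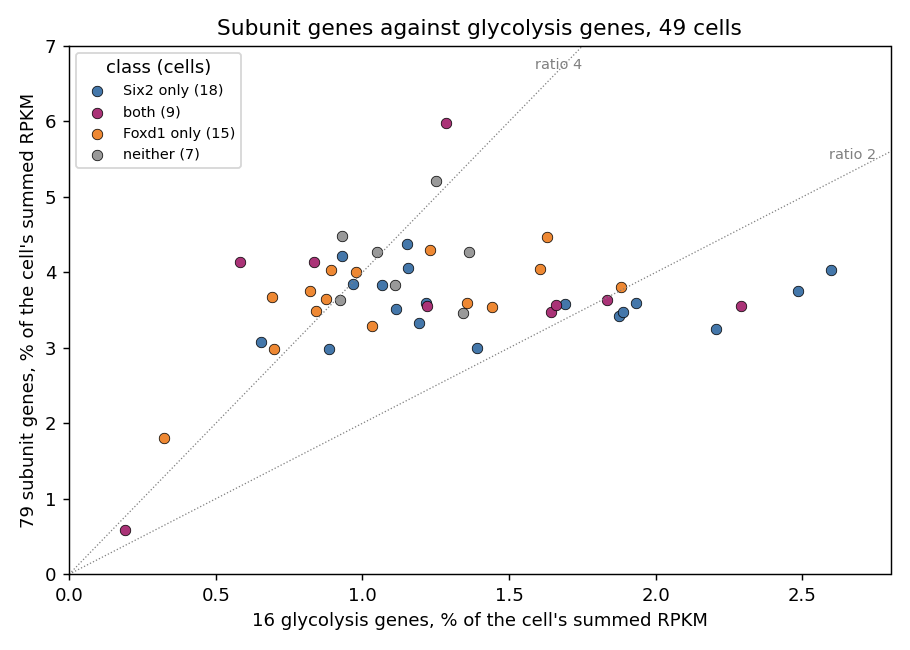
Summed share of 79 subunit genes against that of 16 glycolysis genes in each of 49 cells, coloured by Six2 and Foxd1 class, with dotted lines at ratios of 2 and 4. The vertical range is narrow outside cells 3, 7, 45 and 50. The glycolysis share runs from 0.190% to 2.60%, its highest value being in a cell with Six2 only. Its lowest values, 0.190% and 0.325%, are those of the shallow cells 3 and 7, and the next is 0.583% in cell 49.

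Foxd1 marks the stromal lineage of the kidney and was detected in 24 cells and not in 25. Both shallow cells have Foxd1, and with them the subunit genes were lower in cells with Foxd1: the mean difference was -0.13, with 28 genes higher and 51 lower. Without cells 3 and 7 the mean difference was 0.13. Over the 74 widely detected genes, 26 were higher with all cells (35.1%) and 44 without those 2 (59.5%). Of all genes in at least 25 cells, 51.8% were higher with all cells and 57.7% without cells 3 and 7. Most subunit genes were found in at least 45 cells. Of all 1296 genes so detected, 43.1% were higher with all cells, against 33.8% of the 71 subunit genes. Widely detected genes as a whole thus also leaned lower with all cells. The direction for the whole set therefore rests on 2 libraries with few reads.

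By complex, the lower values lay in III, IV and V. With all cells the mean difference was -0.42 over the 8 genes of complex III, -0.32 over 11 main genes of complex IV and -0.34 over the 15 genes of complex V, of which 14 were lower. Complex I stood at 0.02. Without cells 3 and 7 the means were -0.16 for III, -8.2e-05 for IV, -0.08 for V and 0.31 for I, with 29 of 36 complex I genes higher. Over all genes in at least 25 cells the median was 0.03 with all cells and 0.11 without cells 3 and 7. Over the 1296 genes in at least 45 cells it was -0.07 with all cells and 0.04 without cells 3 and 7. The share of summed RPKM had medians of 3.64% (0.584 to 5.97%) with Foxd1 and 3.63% (2.99 to 5.21%) without.

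Of the 74 genes, 2 were higher by 1 or more with Foxd1, where 8.87% of all genes in at least 25 cells were, and none was lower, where 5.20% were. In at least 45 cells the count was 1 of 71 (1.41%) against 5.86%. The share over all 13093 genes was 8.42%.

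Those 2 genes were Ndufs1 and Sdha. Ndufs1 ranged from 0 to 139 RPKM with a median of 10.8 in cells with Foxd1, and from 0 to 87.1 RPKM with a median of 2.96 in those without, a difference of 1.04. Sdha ranged from 16.7 to 376 RPKM with a median of 92.1 with Foxd1, and from 0.497 to 772 RPKM with a median of 93.4 without. Its difference of 1.03 came with close medians and a lower tail in cells without Foxd1. Both turned negative when Foxd1 was counted from 0.1 RPKM, to -0.02 for Ndufs1 and -0.69 for Sdha. Counted from 5 or 10 RPKM of Foxd1, no subunit gene was higher by 1 or more, and 1 or 2 were lower by that much: Ndufb3 (-1.004 and -1.107) and, at 10 RPKM, Ndufs7 (-1.07). Sdha was also under 1 without cells 25 and 27, at 0.95. The next largest differences with all cells were those of Ndufs4 (0.93) and of the accessory complex I subunits Ndufb6 (0.92) and Ndufa8 (0.71).

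At the lower end, Ndufb3, an accessory complex I subunit, had medians of 68.5 and 97.9 RPKM with and without Foxd1 and a difference of -0.96, which was -0.95 without cells 3 and 7. Uqcrc1, a core protein of complex III, ranged from 9.46 to 757 RPKM (median 228) with Foxd1 and from 83.0 to 992 RPKM (median 337) without. Its difference was -0.92, and -0.79 without cells 3 and 7. Cox7a2 followed at -0.76, and -0.52 without those cells. Ndufs6 (-0.71) and Ndufs7 (-0.67) came to -0.17 and -0.09 without cells 3 and 7.

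**Figure D5:**
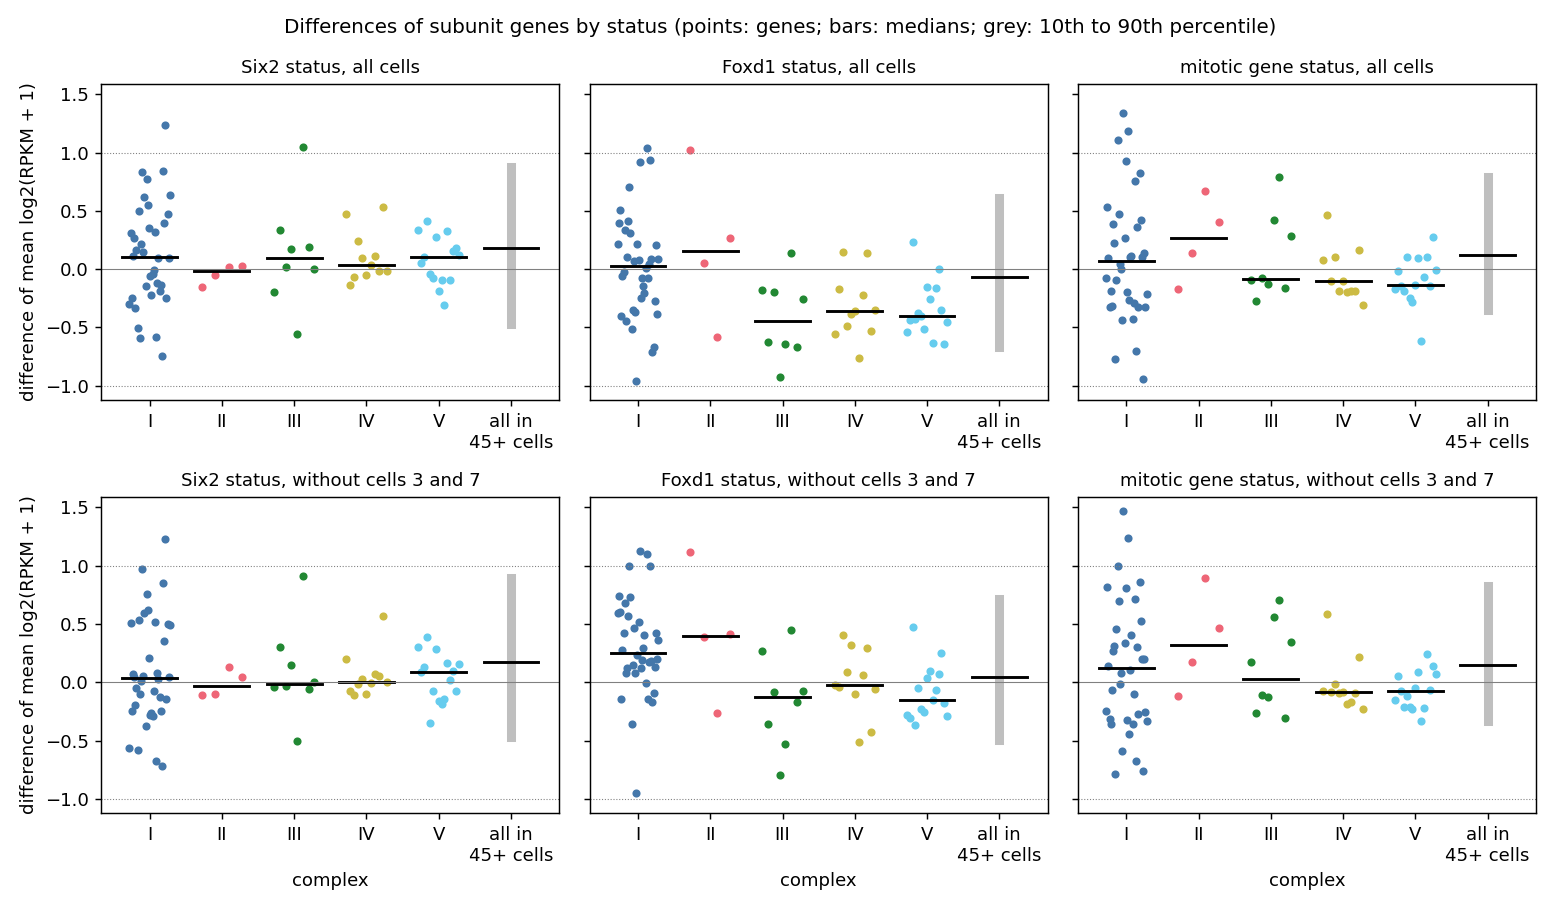
Differences of mean log2(RPKM + 1) of the 74 subunit genes in at least 25 cells by Six2, Foxd1 and mitotic gene status (points, with black bars at the median of each complex), with all cells above and without cells 3 and 7 below; the grey bar is the range from the 10th to the 90th percentile of all 1296 genes in at least 45 cells. Leaving out cells 3 and 7 brings complexes III, IV and V close to 0 by Foxd1 status and lifts complex I.

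Mitotic status was set by 10 genes of late cell cycle (Ccnb1, Ccnb2, Cdc20, Ube2c, Aurka, Aurkb, Plk1, Tpx2, Bub1 and Cenpa). It was high in the 21 cells with at least 5 of them at 10 RPKM or more and low in 28, and 6 cells lay at 4 or 5 genes, next to the limit. Subunit genes were nearly level here too, with a mean difference of 0.05, a median of -0.02, and 38 genes higher against 41 lower. All genes in at least 25 cells had a median of 0.33, and 71.5% of them were higher in cells with high mitotic genes. For all genes in at least 45 cells the median was 0.13.

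These cells also had more detected genes, with a median of 5820 against 4703, and the part of that in the differences was not tested beyond removing a linear trend with detected genes, after which the mean difference of the subunit genes was -0.11. The share of summed RPKM was 0.584 to 5.97% (median 3.56%) in cells with high mitotic genes and 1.81 to 5.21% (median 3.84%) in the others, so the ranges overlap. Across the 47 cells other than 3 and 7, the share and the number of the 10 genes at 10 RPKM had a Spearman correlation of -0.35, and the share and the number of detected genes one of -0.30. The mean log2(RPKM + 1) of the 79 genes had the opposite sign, at 0.32 and 0.43, so the direction depends on the measure. Each cell gives both values from 1 library, and these are descriptions.

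Of the 74 genes, 3 were higher by 1 or more, where 17.7% of all genes in at least 25 cells were. None was lower by 1 or more, where 1.19% were. In at least 45 cells the counts were 2 of 71 (2.82%) against 5.71%, and 10.8% of all 13093 genes were apart by 1 or more.

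The 3 were accessory subunits of complex I. Ndufb2 ranged from 0 to 327 RPKM with a median of 64.6 in cells with high mitotic genes and from 0 to 234 RPKM with a median of 31.7 in the others, a difference of 1.34. Ndufb6 ranged from 16.4 to 424 RPKM (median 188) and from 0 to 676 RPKM (median 124), a difference of 1.18. Ndufa8 had medians of 41.1 and 45.2 RPKM and a difference of 1.11, and it was detected in 20 of 21 cells with high mitotic genes and 22 of 28 of the others. Ndufb4 (0.93) and Ndufs5 (0.83) followed. With the trend with detected genes removed, the differences were 0.32 for Ndufb2, 0.38 for Ndufb6 and 0.0728 for Ndufa8, so none of the 3 passed 1. That of Ndufa8 was 0.998 without cells 3 and 7.

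Among the lowest differences were those of Ndufs8 (-0.94), a core subunit with iron-sulphur clusters, of Ndufa6 (-0.77), of Atp5h (-0.61), a stalk subunit of complex V, and of Ndufb11 (-0.44). That of Atp5h was -0.33 without cells 3 and 7. Ndufs8 had medians of 85.4 RPKM in cells with high mitotic genes and 164 RPKM in the others. Ndufa6 ranged from 14.6 to 369 RPKM (median 140) and from 86.3 to 608 RPKM (median 196). Ranges overlap for each of them. Complex V genes lay between -0.61 and 0.27, with 11 of 15 lower, and between -0.33 and 0.25 without cells 3 and 7, with 10 lower.

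Among the 8 genes matched by name only, the assembly factor Ndufaf4 had a difference of 1.65 by mitotic status and Atp5sl one of 1.20. By Foxd1 status Ndufaf1 had one of -1.40. Assembly factors of the wider list were higher in 14 of 21 genes (66.7%) by mitotic status, with 2 higher by 1 or more (9.52%), near the 65.0% and 10.8% of all genes, and 1 without cells 3 and 7. By Foxd1 status 4 of 21 were higher (19.0%), where 54.9% of all genes were. Of the 21, 2 were lower by 1 or more (9.52%) and none was higher by 1 or more. Of all 13093 genes, 393 were lower by 1 or more, and 8.42% were apart in either direction. Without cells 3 and 7, 3 of the 21 assembly factors were lower by 1 or more (14.3%). Glycolysis genes were higher in 7 of 16 and lower in 9 by mitotic status, with a median of -0.04, close to that of the subunit genes.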

How the data were processed

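RNA of 49 single cells was measured once each. The authors deposited 1 table of RPKM values, per the file headers, with genes above 3 RPKM in at least 1 cell. The submitters' processing notes name TopHat 1.4.1, DESeq and mm9. No source used here gives the counter, the annotation or the treatment of reads with several matches. Amplification was by SMARTer chemistry with Nextera XT libraries, per the labels' protocols, with no strand information or molecular identifiers, so values reflect amplified cDNA.

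From the RPKM values, levels were summarised per gene, and differences were taken between means of log2(RPKM + 1), with Python 3.11.15, pandas 2.3.3, numpy 2.4.6 and scipy 1.17.1. Absolute depth is unknown. Relative depth came from the ratio of low values between cells. The difference, trend, correlation and depth code was tested on simulated data. Columns of other cells left unused numbered 0, and Gene IDs of the table were matched to promoters.

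No test was run, since the cells come from embryos the labels do not name. The members and lists were chosen with earlier results of these data known. Genes named were, per complex, those with the 2 highest and 2 lowest medians; per status, the 5 largest and 5 smallest differences among subunit genes in at least 25 cells; the 5 largest and smallest SDs; all paired forms and members that are no subunits; and of other lists those found in most cells, beyond which Cyc1, Vdac1, Hk2, Slc2a1, Ldhb, Nrf1, Gabpa, Gabpb1 and Ppargc1a were named after their values were seen. The values of 1 subunit gene are not reported here, though it is counted in the totals. Alternatives were other pseudocounts, size factors, status limits and gene sets, removal of a trend with detected genes, and leaving out cells 3 and 7 or 25 and 27. Those for the complexes by Foxd1 status and for the glycolysis ratio were added after the data were seen.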

Additional observations from a re-analysis of the deposited data

How the results depend on the processing

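The depth of cells 3 and 7 and the absence of named embryos limit every comparison, and no cause of a shift was tested. Over all subunit genes, the Six2 difference was -0.0277 with median-of-ratios scaling, the Foxd1 difference 0.13 without cells 3 and 7, and the mitotic difference -0.0176 with a pseudocount of 10, -0.11 with the trend with detected genes removed and -0.10 with mitotic genes counted at 1 RPKM. Other settings kept these 3 signs. The number of subunit genes apart by 1 or more follows the scale. A pseudocount of 0.1 gave 6 by Six2, 5 by Foxd1 and 7 by mitotic status, and a pseudocount of 10 gave 0 for all 3. By Six2 status it was 1 with median-of-ratios scaling, without cells 3 and 7, with the trend removed and with Six2 counted from 0.1 RPKM, and 0 without cells 25 and 27 and with Six2 from 5 RPKM. By Foxd1 status it was 0 with the trend removed and 1, now lower, with Foxd1 from 5 RPKM, and both of the 2 from 10 RPKM were lower. By mitotic status it was 1, now lower, with the trend removed, 5 with at least 3 mitotic genes and 7 with at least 7. The median correlation between subunit genes was 0.0416 without cells 3 and 7. Counted from 0.1 RPKM of Foxd1, Ndufs1 came to -0.0237 and Sdha to -0.69. Of 270 differences of named genes recomputed, 5 had another sign, 4 of them with status counted from 0.1 RPKM and 1 from 10 RPKM. The median OXPHOS share was 3.63% with all cells, 3.65% without cells 3 and 7 and 3.63% without cells 25 and 27. It was also 3.63% with only the subunit genes in at least 25 cells. These settings leave out few cells or low genes, so they could hardly move a median. No paired analysis was possible because the cells form 1 group.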
